A study of Homo sapiens with 6 samples.

Results

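The p38, ERK and JNK cascades are relays of protein kinases that carry signals from the cell surface and from stress to the nucleus. 32 genes were taken from them by name: kinases of the RAF and MAP3K tier, MAP2Ks, MAP kinases, and the kinases that MAP kinases switch on. A gene entered through the array rows whose platform annotation gives its symbol and no other, and of several such rows the one with the highest mean log2 signal over all arrays was used. This gave 28 of the 32 genes, among 11963 genes with such a row in all. MAPK14, MAP2K3, MAP2K7 and BRAF are not analysed here. 23 of the 28 passed the filter on low signal (a mean log2 signal above 5.51, a signal of 45.5) and were tested, among 7927 tested genes. MAPK11, MAP2K6, MAP3K1, MAP3K2 and MAP3K8 lay below it.

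The RNA came from NCI-H295A, an established human adrenocortical carcinoma line that makes steroids. Control cells had no 8-Br-cAMP, and treated cells had 8-Br-cAMP at 1 mM for 18 h. 8-Br-cAMP is a cell-permeable analogue of cAMP, the second messenger of the pituitary hormone ACTH in the adrenal cortex. Each group had 3 Affymetrix arrays, with sample numbers 1 to 3 in both, and all cells had the same medium with a low share of fetal calf serum, insulin and selenium. One cell line at one dose and one time limits what the arrays can show of the adrenal cortex. The series asks which signalling pathways lead to phosphorylation of P450c17, an enzyme of androgen synthesis, so the transcripts of protein kinases are of interest.

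In each cascade a MAP3K phosphorylates a MAP2K, which phosphorylates a MAP kinase on a threonine and a tyrosine. RAF kinases, MAP2K1 and MAP2K2 lead to ERK; MAP3K5 and other stress-responsive MAP3Ks lead through MAP2K4 and MAP2K7 to JNK and through MAP2K3 and MAP2K6 to p38; MAP3K2, MAP3K3 and MAP2K5 lead to ERK5. Protein kinase A, the kinase that cAMP activates, can inhibit or stimulate the ERK cascade depending on the cell. The activity of these kinases is set by phosphorylation, which arrays do not measure.

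Promoter windows of 300 bases, from 250 bases before to 50 after each gene's start (RefSeq, GRCh38.p14), were found for 30 of the 32 genes, in 49 windows, and not for MAP3K1 and MAPKAPK2. The 250 bases before the start follow for MAPK13, the one gene of the cascades that passed the test with paired arrays, and for MAPK10, the one gene with a full cAMP response element. Capitals mark the GC boxes (GGGCGG, either strand) in MAPK13, chr6:36130263-36130512 on the plus strand, and the cAMP response element (TGACGTCA) in MAPK10, chr4:86360054-86360303 on the minus strand.
MAPK13: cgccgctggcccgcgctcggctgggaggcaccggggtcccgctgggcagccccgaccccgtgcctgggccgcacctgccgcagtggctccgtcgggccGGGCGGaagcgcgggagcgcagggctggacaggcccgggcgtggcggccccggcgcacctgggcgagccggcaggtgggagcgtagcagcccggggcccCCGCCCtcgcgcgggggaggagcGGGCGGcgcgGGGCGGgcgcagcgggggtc
MAPK10: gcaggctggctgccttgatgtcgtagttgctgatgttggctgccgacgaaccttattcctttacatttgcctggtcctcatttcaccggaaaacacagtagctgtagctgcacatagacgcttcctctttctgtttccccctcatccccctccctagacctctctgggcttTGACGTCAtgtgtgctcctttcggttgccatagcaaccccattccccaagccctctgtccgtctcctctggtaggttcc
The MAPK13 stretch is 84.4% G or C and holds 4 GC boxes. None of the letters TGACGTCA, TGACG (the short core of that element) and TGANTCA (the AP-1 site) was found in the MAPK13 window on either strand. The MAPK10 stretch is 54% G or C, and its element begins 79 bases before the start, in 1 of the gene's 3 windows. Both strands were searched in every window, and a full element also holds the short core. The full element stood in 1 of the 49 windows (2.04%) and in 1.85% of all 35116 windows of this length. The short core stood in 16 of the 49 (32.7%) against 24.6% of all windows, the AP-1 site in 3 (6.12%) against 7.71%, and the GC box in 31 (63.3%) against 45%. AAGGTCA, a site of the adrenal factor SF-1, stood in 1 (2.04%) against 3.92%. These matches describe letters and not bound sites.

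The arrays numbered 1 stood apart in both groups. The 3'/5' signal ratio of actin, which climbs as RNA is degraded, was 1.93 to 2.41 on the arrays numbered 2 and 3, but 5.72 on control 1 and 38.8 on 8-Br-cAMP 1. Across probe sets, log2 signals of arrays 2 and 3 correlated at 0.961 in controls and 0.980 after treatment, but at 0.776 to 0.833 wherever a number 1 array was set against another of its group. All 9 adrenocortical markers passed the filter, with a summed signal of 6356.3 to 22380 in controls and 18726.8 to 43859.7 after 8-Br-cAMP. The 4 markers of the neighbouring adrenal medulla (TH, DBH, PNMT and CHGA) all lay below the filter, with summed signals of 60.2 to 102 and 78.6 to 91.5. Differences are therefore given for all 3 arrays a group, and for tested genes also with both number 1 arrays left out. The labels tie no sample number to a separate culture. The p-values therefore set each difference only against the variation among these samples, and that variation may be technical. That holds above all for the fit on arrays 2 and 3 alone.

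Of the 23 tested genes, 8 had a higher and 15 a lower mean log2 signal after 8-Br-cAMP, with a median log2 difference of -0.12 against -0.14 over all tested genes. Without a block for the sample number, limma called 0 of the 23 at an adjusted p of at most 0.05 and 0% of all tested genes. At an unadjusted p under 0.05 there were 4 of the 23 and 947 of the 7927. In the paired fit, which has the sample number as a block, 1 of the 23 rose (MAPK13, 4.35%) and 0 fell, against 1.73% higher and 1.96% lower over all tested genes. At an unadjusted p under 0.05 the paired fit had 5 of the 23 and 1773 of the 7927. With both number 1 arrays left out and no block, 2 of the 23 passed as higher (8.70%, MAPK13 and MAP2K1) and 8 as lower (34.8%), against backgrounds of 12.8% and 20.5%. These 8 were MAPK9, MAPK10, MAP2K2, MAP2K5, MAP3K5, MAPKAPK3, RPS6KA1 and ARAF. The groups did not overlap in 5 of the 23 (21.7%), near the background of 19.9%. Under the series' own selection, which asks for a mean change of 2-fold or more and an unadjusted p under 0.05, MAPK13 alone was picked (4.35%), against 7.01% of all tested genes.

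**Figure D1:**
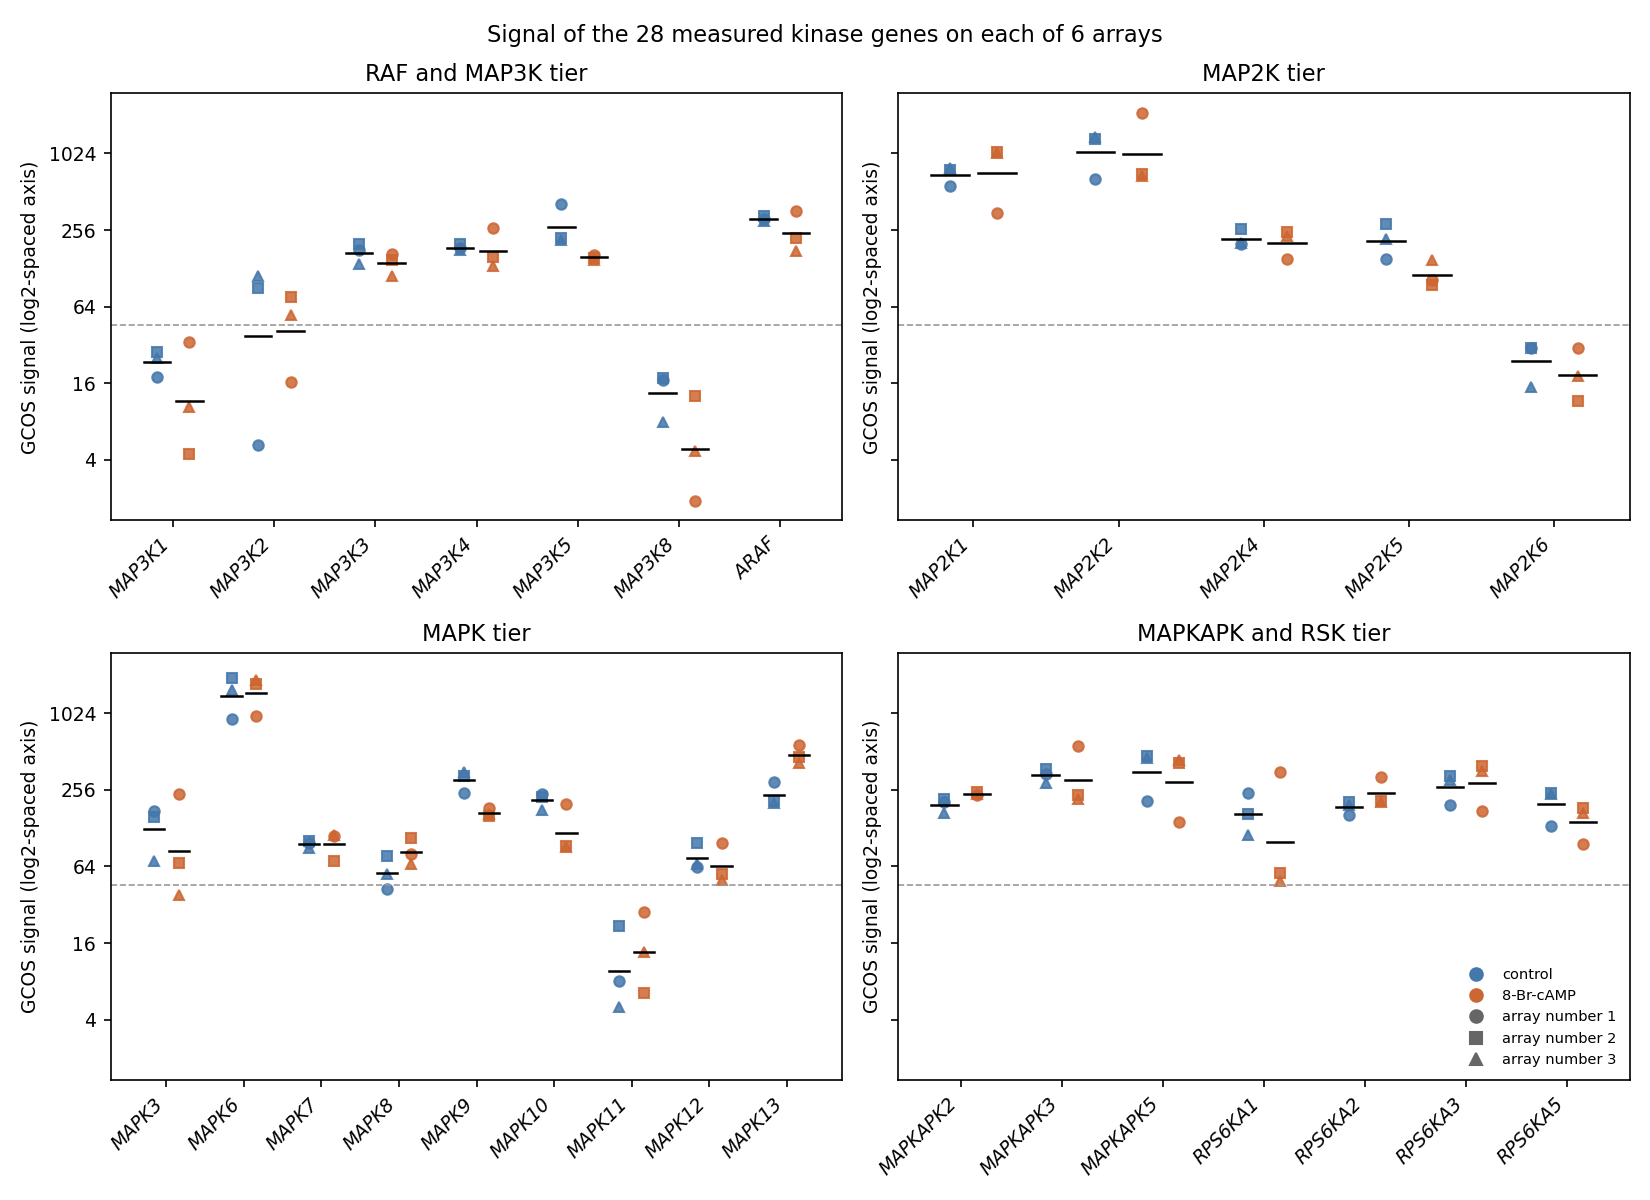
Deposited signal (log2-spaced vertical axis) of the 28 measured genes on each of 6 arrays, by tier; blue is control, orange 8-Br-cAMP, the marker shape is the array number, black bars are group means of log2 signal and the dashed line is the filter at a signal of 45.5. The 3 orange points of MAPK13 lie between 414.9 and 574.7, above its blue points at 202 to 294.3, while in MAP2K2 the orange circle at 2135.7 lies far from the other orange points at 676.8 and 707.3.

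The p38 branch held MAPK13, the one cascade gene that passed in the paired fit with all 6 arrays. MAPK13 encodes p38 delta. Its signal was 294.3, 209.4 and 202 on controls 1, 2 and 3, and 574.7, 467.2 and 414.9 after 8-Br-cAMP. Every treated array lay above every control, and array 1 was the highest of its group on both sides. The mean log2 signal was 7.86 ± 0.30 in controls and 8.91 ± 0.24 after 8-Br-cAMP (SD, n = 3 each), a log2 difference of 1.05, or 2.08-fold. The pairs gave 0.97, 1.16 and 1.04, so pair 1 was as far apart as the others. limma's adjusted p was 0.225 without the block (SE 0.28) and 0.0474 in the paired fit (SE 0.20, 95% interval 0.57 to 1.53). Without both number 1 arrays the difference was 1.10 and the adjusted p 0.00106.

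A second probe set of MAPK13 read 241.6, 204.9 and 207.5 on the controls and 581.9, 390.9 and 439.9 after 8-Br-cAMP. Its log2 difference was 1.09, with an adjusted p of 0.0474 in the paired fit as well. Both probe sets thus had separate groups and the same size of difference. The call lay close to the threshold and rests on a pairing by number that the labels do not state. It was lost in the paired fit without pair 2 (adjusted p 0.218) or without pair 3 (0.267), with the arrays set to a common median (0.0678) and without the intensity trend (0.0882), and kept in 8 of the 12 alternatives of the paired fit. The log2 difference was 1.00 to 1.28 in all 12.

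The other p38 genes gave no such difference. MAPK12 encodes p38 gamma. Its signal was 63.3, 98.1 and 66.7 on controls and 97.2, 56.1 and 50.1 after 8-Br-cAMP. The groups overlapped, and 8-Br-cAMP 1 was the high array of its group. The log2 difference was -0.20 (adjusted p 0.912, and 0.811 paired), with pairs at 0.62, -0.81 and -0.41, and it was slightly above 0 under quantile normalization (0.050) and a common median (0.025). It was -0.61 without both number 1 arrays (adjusted p 0.216). MAPK11 encodes p38 beta. Its signal of 8.1, 21.7 and 5 on controls and 28.1, 6.5 and 13.6 after 8-Br-cAMP stayed below the filter on every array, and its other probe sets did not pass the filter either. MAP2K6, a MAP2K that activates p38 kinases, read 30.3, 30.2 and 14.9 on controls and 30, 11.5 and 18.2 after 8-Br-cAMP. All of these values too were below the filter signal, so neither gene was tested.

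The kinases that p38 activates differed in their pattern. MAPKAPK2 phosphorylates the small heat shock protein HSPB1 and proteins that control mRNA decay. Its signal was 205.4, 216 and 167.4 on controls and 232.8, 246.1 and 236.8 after 8-Br-cAMP. The groups did not overlap and the pairs were all above 0 (0.18, 0.19 and 0.50). The log2 difference of 0.29 did not pass (adjusted p 0.742, 0.492 paired, and 0.184 without both number 1 arrays). A further probe set of the gene gave 0.44, also with all pairs above 0. Another gave -0.53 with uneven pairs (-1.88, -0.95 and 1.26), so the probe sets of MAPKAPK2 disagreed in sign. MAPKAPK3, a close relative, read 341, 373.2 and 291.5 on controls and 568.4, 233.5 and 216 after 8-Br-cAMP. Pair 1 stood at 0.74 and pairs 2 and 3 at -0.68 and -0.43, for a mean of -0.12 that changed sign under quantile normalization (0.0067) and a common median (0.10). Without both number 1 arrays it passed as lower (-0.55, adjusted p 0.0404), while its second probe set gave -0.04 there. RPS6KA5, which encodes MSK1, a kinase of CREB and of histone H3 that both p38 and ERK activate, had 3 pairs close together (-0.45, -0.39 and -0.50). Its adjusted p was 0.752, 0.301 paired and 0.0703 without both number 1 arrays. Its second probe set had less even pairs (-0.69, 0.08 and -0.24) and gave -0.08 without both number 1 arrays (adjusted p 0.737).

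In the JNK branch 2 of the 3 kinases had lower means and 1 a higher one, and none passed with all 6 arrays. MAPK9 encodes JNK2. Its signal was 243.6, 327.1 and 353.9 on controls and 185.1, 158.5 and 165.3 after 8-Br-cAMP. Every treated array lay below every control, and control 1 came nearest to the treated arrays. The log2 means were 8.25 ± 0.28 and 7.40 ± 0.12 (SD, n = 3 each), a difference of -0.85. The adjusted p was 0.286 without the block and 0.117 paired (95% interval -1.43 to -0.27), and 0.0016 without both number 1 arrays (-1.07). The second probe set of MAPK9 gave -0.89, with pairs at -0.40, -1.34 and -0.93. Its groups overlapped, since control 1 read 57.2 and the treated arrays 43.5, 76.3 and 68.2. Without both number 1 arrays this second probe set gave -1.14 and passed too (adjusted p 0.0148).

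MAPK10 encodes JNK3, a form best known from neurons, and is the gene with the cAMP response element printed above. Its signal was 237.5, 226.7 and 178.4 on controls and 197.3, 92.6 and 90.4 after 8-Br-cAMP. 8-Br-cAMP 1 lay within the controls, and the other treated arrays lay well below them. The log2 difference was also -0.85, with pairs at -0.27, -1.29 and -0.98. Its adjusted p was 0.464, then 0.155 paired (95% interval -1.51 to -0.18), and 0.00529 without both number 1 arrays (-1.14). MAPK8 encodes JNK1. Its signal of 42.4, 77.9 and 55.6 on controls and 80, 106.4 and 67.3 after 8-Br-cAMP overlapped between groups. The log2 difference of 0.55 had an adjusted p of 0.681 (0.402 paired), and another probe set gave -0.13. It was 0.36 without both number 1 arrays (adjusted p 0.461). Names ending in _x_at mark probes that can match other transcripts. Both MAPK8 probe sets carry such a name, as do those used for MAPK3 and MAP3K4. So do the second probe set of MAPK9, the MAP2K5 probe set that gave -0.81 and the MAPKAPK2 probe set that gave -0.53.

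Upstream of JNK and p38, MAP3K5 encodes ASK1, a MAP3K that responds to oxidative stress. Its signal was 411.6, 220.6 and 215 on controls and 163.4, 155.2 and 149 after 8-Br-cAMP. The groups did not overlap, and control 1 was far above the other controls. The log2 means were 8.07 ± 0.53 and 7.28 ± 0.07 (SD, n = 3 each), a difference of -0.79, with pairs at -1.33, -0.51 and -0.53. The adjusted p was 0.433, then 0.153 paired (95% interval -1.41 to -0.17), and 0.0487 without both number 1 arrays (-0.52). Here pair 1 was the widest, unlike in MAPK9 and MAPK10. The second probe set of MAP3K5 gave -0.42 over all arrays, and without both number 1 arrays -0.35, which did not pass (adjusted p 0.267). MAP3K4, a MAP3K that GADD45 proteins bind, had a log2 difference of -0.08, with pair 1 at 0.51 against -0.33 and -0.41, and its sign turned under quantile normalization (0.12) and a common median (0.15). Its adjusted p was 0.964, 0.901 paired and 0.168 without both number 1 arrays (-0.37). A second MAP3K4 probe set gave -0.34, and -0.55 without both number 1 arrays (adjusted p 0.0598). MAP2K4, which phosphorylates JNK, had -0.11 and pairs on both sides of 0, and it too turned under both scalings (0.029 and 0.12). Its adjusted p was 0.937, 0.828 paired and 0.888 without both number 1 arrays (0.037). A second MAP2K4 probe set gave -0.38, with pairs at -0.33, -0.24 and -0.56, and did not pass in any of the 3 fits (adjusted p 0.277 to 0.720). MAP3K1 stayed below the filter signal on every array, at 17.8 to 27.9 in controls and 4.4 to 33.4 after 8-Br-cAMP.

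**Figure D2:**
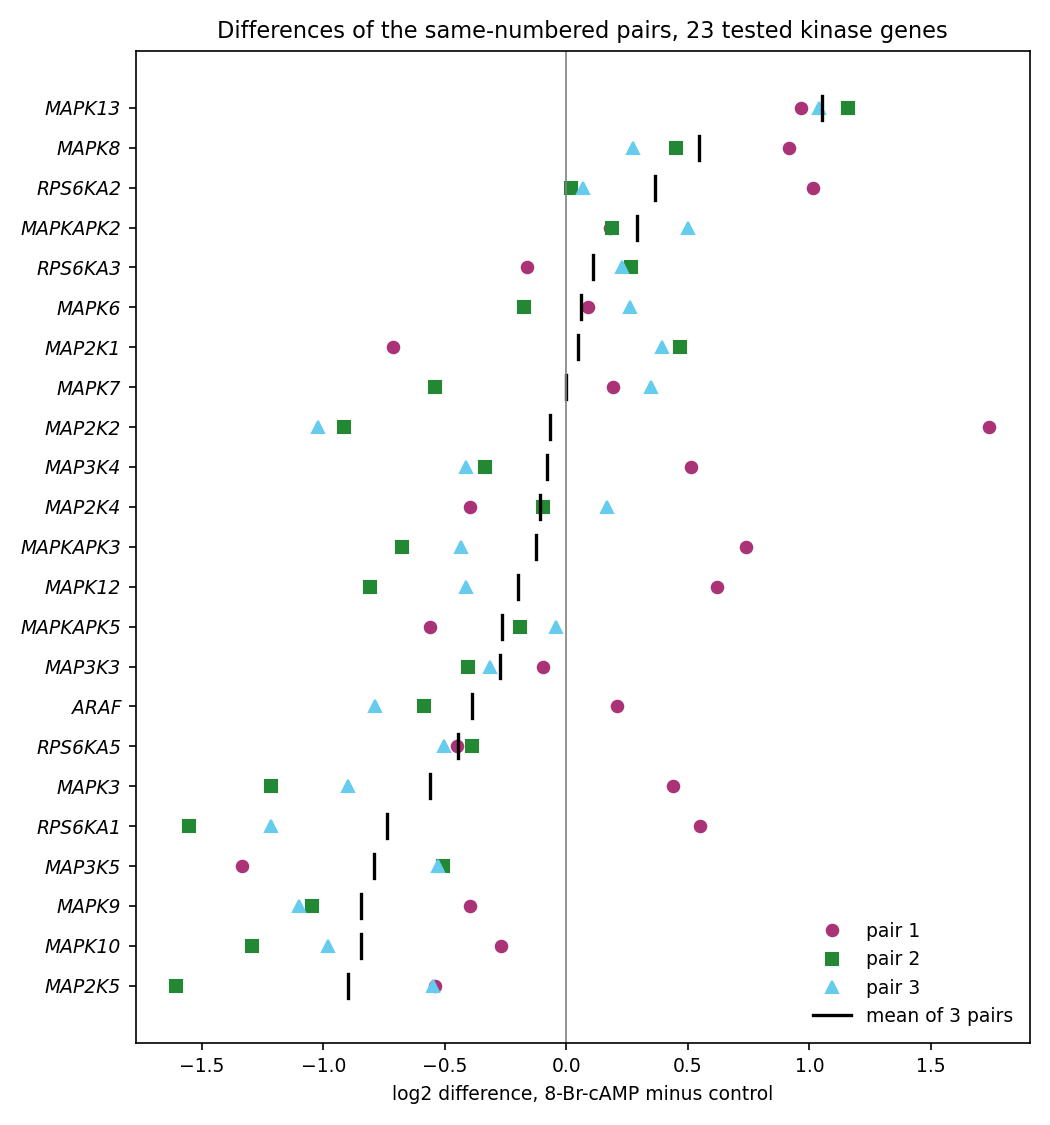
Log2 difference (8-Br-cAMP minus control, horizontal axis) of each same-numbered pair for the 23 tested genes, ordered by the mean of the pairs (black bars). The 3 pairs of MAPK13 lie close together from 0.97 to 1.16, whereas pair 1 of MAP2K2 lies at 1.74 and its other pairs at -0.92 and -1.02.

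In the ERK branch none of the genes passed with all 6 arrays, and in ARAF, MAP2K1, MAP2K2, MAPK3, RPS6KA1 and RPS6KA3 pair 1 ran opposite to pairs 2 and 3. ARAF, a RAF kinase at the head of the branch, read 312.3, 331.8 and 302 on controls and 360.5, 221 and 175.1 after 8-Br-cAMP. Treated array 1 was above all controls and the others were below them. The log2 difference was -0.39 (adjusted p 0.740, 0.444 paired) and -0.69 without both number 1 arrays (adjusted p 0.0188). MAP2K2 encodes MEK2. Its signal was 639.6, 1334.5 and 1376.2 on controls and 2135.7, 707.3 and 676.8 after 8-Br-cAMP. Control 1 was the low control and 8-Br-cAMP 1 the high treated array, so pair 1 gave 1.74 and pairs 2 and 3 gave -0.92 and -1.02. The mean of -0.07 (adjusted p 0.984, 0.961 paired) became -0.97 (adjusted p 0.000408) without both number 1 arrays, and 0.16 with a common median. A second probe set of MAP2K2 gave pairs of -0.03, -0.64 and -0.84, with no rise in pair 1. Without both number 1 arrays this probe set gave -0.74 and passed too (adjusted p 0.00677).

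MAP2K1, which encodes MEK1, ran opposite to MAP2K2. Its signal was 568.2, 762.8 and 786.5 on controls and 346.1, 1055.9 and 1033.6 after 8-Br-cAMP. The treated arrays held both the lowest value of the 6 and the highest. The log2 difference was 0.05 (adjusted p 0.987, 0.943 paired) and 0.43 without both number 1 arrays (adjusted p 0.0172). The difference between the MAP2K1 and MAP2K2 responses was not tested. MAPK3 encodes ERK1. Its signal was 176.3, 157.1 and 71.1 on controls and 67.6 and 38.1 on 8-Br-cAMP 2 and 3, with 238.7 on 8-Br-cAMP 1. The log2 difference of -0.56 had an adjusted p of 0.854 (0.448 paired) and 0.115 without both number 1 arrays and with no block (-1.06). With the block on pairs 2 and 3 alone the same -1.06 passed (adjusted p 0.0219), in a fit where 4680 of all 13329 probe sets passed. MAP3K8, which encodes the MEK-activating kinase TPL2, stayed at or below 17.7 on all arrays.

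The RSK kinases, which ERK activates and which phosphorylate ribosomal protein S6 and CREB, did not move as one. RPS6KA1 (RSK1) read 243, 166.4 and 114.1 on controls and 356, 56.8 and 49.2 after 8-Br-cAMP. Array 1 was the highest on both sides, and the other treated arrays lay below every control. Its log2 difference was -0.74 (adjusted p 0.808, 0.379 paired) and -1.38 without both number 1 arrays (adjusted p 0.00989). RPS6KA2 (RSK3) gave 0.37, which came from pair 1 (1.02), since pairs 2 and 3 gave 0.02 and 0.07. Its second probe set gave -0.04. RPS6KA3 (RSK2) gave 0.11, and neither gene passed in any of the 3 fits (adjusted p 0.201 to 0.956).

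In the ERK5 branch MAP2K5, which encodes the MAP2K of ERK5, had the largest negative difference of the 23 tested genes in the deposited signals. Its signal was 150.8, 287.4 and 216.5 on controls and 103.7, 94.5 and 148.2 after 8-Br-cAMP. The groups did not overlap, though 8-Br-cAMP 3 lay just below control 1. The log2 means were 7.72 ± 0.47 and 6.82 ± 0.34 (SD, n = 3 each), a difference of -0.90, with pairs at -0.54, -1.60 and -0.55. The adjusted p was 0.393, then 0.156 paired (95% interval -1.61 to -0.19), and 0.0157 without both number 1 arrays (-1.08). Its other probe sets above the filter gave -0.81 and -0.58, with all pairs below 0, but did not pass without both number 1 arrays (adjusted p 0.0984 and 0.330). MAPK7, which encodes ERK5 itself, read 89.2 to 101.9 in controls and 70.1 to 113.5 after 8-Br-cAMP, with a log2 difference of 0.00 and a paired 95% interval of -0.74 to 0.74. It was -0.10 without both number 1 arrays (adjusted p 0.830). MAP3K3, upstream of MAP2K5, gave -0.27 with pairs at -0.10, -0.40 and -0.32 (adjusted p 0.812, 0.545 paired), and -0.36 without both number 1 arrays (adjusted p 0.300). MAP3K2 had too low a mean to be tested, because control 1 read 5.2 and 8-Br-cAMP 1 read 16.4, while the other arrays gave 55.3 to 111.7.

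MAPK6 encodes ERK3, an atypical MAP kinase that activates MAPKAPK5. Its signal was 921.4, 1954 and 1572 on controls and 980.5, 1731 and 1882.4 after 8-Br-cAMP. Array 1 was the lowest on both sides by a similar step, and the groups otherwise overlapped. The log2 difference was 0.06 (paired 95% interval -0.39 to 0.51), and -0.065 under quantile normalization. It was 0.043 without both number 1 arrays (adjusted p 0.822). MAPKAPK5 gave -0.27 with the same low number 1 arrays, 210.7 and 142.7 against 414.5 to 472.5 on the rest (paired 95% interval -0.78 to 0.25). It was -0.12 without both number 1 arrays (adjusted p 0.506).

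Set over all 23 genes, the sign was the same in the 3 pairs for 11 (47.8%; 4 higher and 7 lower), against 44.7% of all tested genes. Pair 1 ran opposite to pairs 2 and 3 in 9 (39.1%), against 34.4%. Pairs 2 and 3 were both below 0 in 14 (60.9%), against 51.3%. The median log2 difference of the 23 was 0.18 in pair 1, -0.40 in pair 2 and -0.41 in pair 3, and over all tested genes it was -0.03, -0.19 and -0.16. Without both number 1 arrays the medians were -0.37 for the 23 and -0.18 for all. These medians are descriptions, and the difference between them was not tested. Scaling moved both medians together, to -0.07 and -0.04 under quantile normalization and to 0.10 and 0.09 with a common median. By tier the medians were -0.33 for RAF and MAP3K genes (4 tested), -0.09 for MAP2Ks (4), -0.10 for MAP kinases (8) and -0.12 for MAPKAPK and RSK genes (7). The actin ratio was highest on both number 1 arrays but differed between them, at 5.72 on control 1 and 38.8 on 8-Br-cAMP 1. The GAPDH 3'/5' ratio was 1.79 and 4.29 on these arrays. RNA integrity thus differed with treatment inside pair 1, which a block does not remove. Its part in these differences was not tested. In such bulk RNA, fewer cells with a transcript and less of it per cell cannot be told apart.

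**Figure D3:**
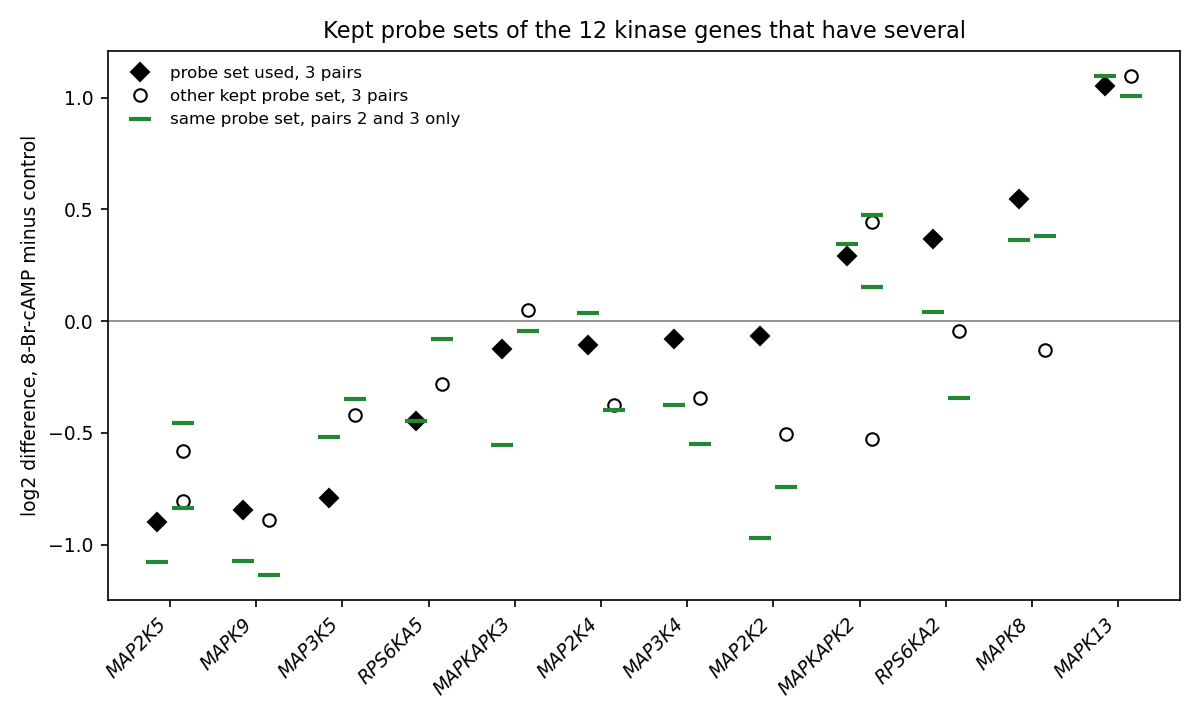
Log2 difference (vertical axis) of every probe set above the filter for the 12 genes that have several; filled diamonds are the probe sets used, open circles the others, and green bars the mean of pairs 2 and 3 for the same probe set. The points of MAPK13 and MAPK9 lie together, at 1.05 and 1.09 and at -0.85 and -0.89, while those of MAPK8 lie on both sides of 0 over all 3 pairs.

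The 28 genes had 51 single-symbol probe sets, 37 of them above the filter. Of the 12 genes with several above it, 8 had all in one direction. MAPK8, MAPKAPK2, MAPKAPK3 and RPS6KA2 had probe sets on both sides of 0. The direction in these 4 therefore depends on which probe set is read. Size or call depended on it in other genes too. MAP2K2 gave -0.07 or -0.51, and MAP2K5 and MAP3K5 passed without both number 1 arrays only with the probe set used.

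Around the kinases, other genes of the same pathways were read from lists. Among other kinases above the MAP2K tier and their activators, 17 of 24 were tested and limma called 0 in the paired fit in either direction (0 at an unadjusted p under 0.05), with a median log2 difference of -0.14. Among adaptors, scaffolds and cytoplasmic regulators 16 of 22 were tested, and 1 rose and 0 fell (median -0.20). Among kinase substrates 18 of 19 were tested and 0 passed (7 at an unadjusted p under 0.05, median -0.12). Of the phosphatases that switch MAP kinases off, 7 of 13 were tested, and 1 rose and 0 fell (median 0.33). Of genes often induced by ERK signalling, 10 of 13 were tested, and 4 rose and 0 fell (median 1.24). At the adjusted threshold the share over all tested genes was 1.73% higher and 1.96% lower. At an unadjusted p under 0.05 the paired fit also had 4 of the 16 adaptors, scaffolds and regulators. It had 3 of the 7 phosphatases and 7 of the 10 genes of the ERK list, against 1773 of all 7927 tested genes.

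SPRY2 encodes Sprouty 2, an inhibitor of signalling from receptor tyrosine kinases to ERK. Its signal was 28.3, 73.6 and 82.5 on controls and 119.8, 437 and 463.1 after 8-Br-cAMP. Array 1 was the low one on both sides, and the groups did not overlap. It rose by 2.38 on the log2 scale (adjusted p 0.232 without the block, 0.0125 paired), with pairs at 2.08, 2.57 and 2.49, and by 2.53 without both number 1 arrays (adjusted p 3.72e-05). Its relative SPRY1 read 55.8, 86 and 95.5 on controls and 15.1, 47.7 and 42.7 after 8-Br-cAMP. This is a log2 difference of -1.30 that did not pass with all 6 arrays (adjusted p 0.447, 0.151 paired). Without both number 1 arrays it was -1.01 and passed narrowly (adjusted p 0.0481). The gene was named after its value was seen.

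DUSP5 encodes a nuclear phosphatase of ERK. Its signal was 80.8, 123.8 and 96.2 on controls and 191.6, 513.5 and 563.5 after 8-Br-cAMP. The groups did not overlap, and 8-Br-cAMP 1 was the lowest treated array. It rose by 1.95 on the log2 scale (adjusted p 0.179, and 0.0282 paired), and by 2.30 without both number 1 arrays (adjusted p 7.17e-05). The call was lost with a common median (0.0576) and without the intensity trend (0.0659). DUSP6, which encodes a cytoplasmic phosphatase of ERK, was named after its value was seen. It read 478.5, 237.4 and 272.3 on controls and 530, 647.9 and 709.3 after 8-Br-cAMP. Pair 1 gave 0.15 and the others 1.45 and 1.38, and the difference of 0.99 did not pass with all arrays (adjusted p 0.326, 0.132 paired). On arrays 2 and 3 alone it was 1.41 and passed (adjusted p 0.000232). In that fit 4 of the 7 tested phosphatases passed as higher and 1 as lower. Over all tested genes the shares there were 12.8% and 20.5%.

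EGR1, an early transcription factor gene with ERK-responsive elements, read 111.5, 251.9 and 263.8 on controls and 1427.4, 3357.4 and 3403.3 after 8-Br-cAMP. It rose by 3.70 (adjusted p 0.0548 without the block, 0.00486 paired), with pairs at 3.68, 3.74 and 3.69. The 3 pairs agreed closely, although both number 1 arrays were the lowest of their group. FOSL1, an AP-1 subunit, rose by 2.26 (adjusted p 0.197, 0.0183 paired), from 22, 44.4 and 64.4 to 97.5, 247.9 and 287.9. ETV5, an ETS factor that ERK signalling induces in many cells, rose by 1.37 (adjusted p 0.141, 0.0217 paired), from 480.8, 755.9 and 731.9 to 1397.6, 1781.5 and 1862.9. Its call was lost without pair 3 (0.0546) and without the intensity trend (0.0651). JUNB, a further AP-1 gene named after its value was seen, rose by 1.36 (adjusted p 0.132, 0.0307 paired), and its call was lost without pair 2 (0.0724) and without the trend (0.0713). Without both number 1 arrays, EGR1 rose by 3.71 (adjusted p 1.69e-06), FOSL1 by 2.32 (0.000414), ETV5 by 1.29 (8.81e-05) and JUNB by 1.24 (0.00233). Several genes of the ERK list are also known as direct targets of CREB, the transcription factor that protein kinase A activates.

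**Figure D4:**
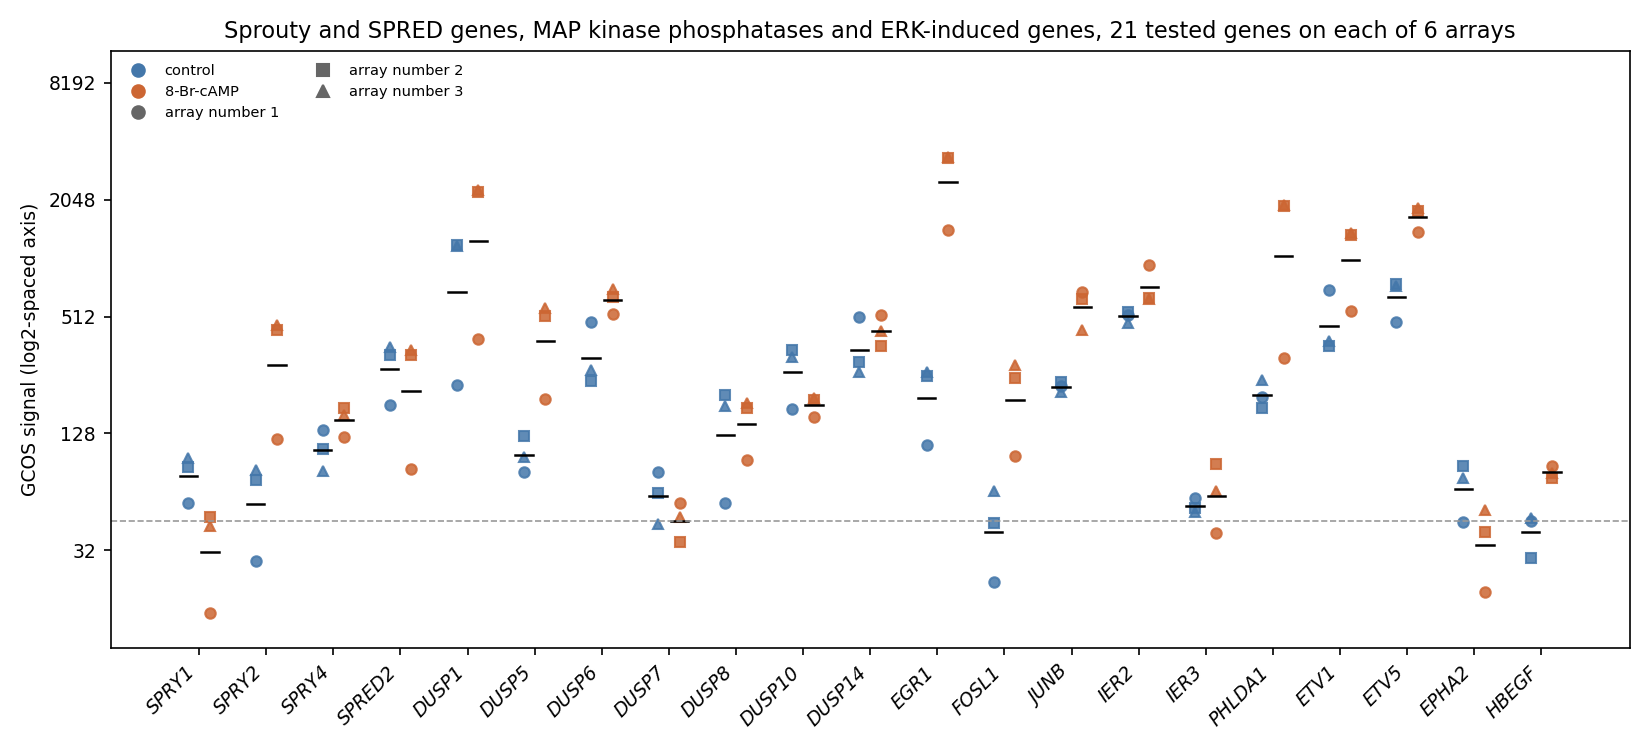
Deposited signal (log2-spaced vertical axis) of the tested Sprouty and SPRED genes, MAP kinase phosphatases and ERK-induced genes on each array; colours, shapes, bars and dashed line mark group, array number, mean log2 signal and the filter. The treated arrays of EGR1 lie at 1427.4 to 3403.3 above controls at 111.5 to 263.8, and SPRY1 and SPRY2 lie on opposite sides of their controls.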

How the data were processed

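RNA from 3 control and 3 treated samples was hybridised to Affymetrix arrays. Per the labels' protocols the authors made signal intensity values with GCOS 1.3. No build or further step is given in the sources used here. The deposited intensities, whose 2% trimmed mean was 249.996 to 250.155 on every array, were used as they stand, so a shift of most transcripts in one direction would not be seen. They were taken to log2 without a pseudocount. The table holds 22277 probe sets. Of the 22215 that are not array controls, 19064 have 1 symbol, 1043 several and 2108 none listed. The gene IDs of all 28 genes matched RefSeq, with 0 symbols changed.

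A filter at the 40th percentile of mean log2 signal left 13329 probe sets. limma 3.58.1 (R 4.3.3) fitted them with lmFit and eBayes with a trend. Its tests were two-sided, p-values were adjusted over all of these probe sets (Benjamini-Hochberg), and the threshold was 0.05. The script was checked on simulated data. The main design has no block. After each group's mean was removed, the 2 arrays of a number correlated at 0.603, 0.378 and 0.538 for numbers 1, 2 and 3, each over the limit of 0.1, and samples were treated as paired by number. The labels do not state this pairing, and these correlations cannot establish it for numbers 2 and 3. The number 1 arrays stood apart in both groups, and an offset that they share can by itself make all 3 correlations positive. Correlations between arrays of different numbers were not compared. "Paired" values have the sample number as a block, and differences are the same in both fits. The median log2 difference of all 13329 probe sets was -0.13 as deposited, -0.03 under quantile normalization and 0.09 with a common median.

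The genes and lists were chosen with earlier results of these data known. Values on every array are given for genes that pass in either fit, have separate groups and 3 pairs of one sign, have the 5 largest differences, or encode p38 kinases or their MAP2Ks, and from each list for up to 3 genes that pass when paired. Values for further genes were added for the account of each branch. Alternatives covered scaling, filter, floor, pseudocount, variance moderation, probe set choice, the block, the series' selection and each array left out. Precision is limited by the number of arrays.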

Additional observations from a re-analysis of the deposited data

How the results depend on the processing

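With no block, 0 probe sets changed, and there were 17 with quantile normalization, 17 with a common median, 18 with the 60th percentile filter, 26 with signals raised to a floor of 13.5 and 26 with a pseudocount of 16. With the replicate block there were 428 (207 higher, 221 lower), then 337 with quantile normalization, 142 with a common median (103 higher, 39 lower), 406 with no filter, 440 at the 60th percentile, 473 with the floor, 521 with the pseudocount, 408 with robust variances and 81 without a trend. The series' selection gave 880. Leaving out samples gave 0 to 4680, with 58 without control 1, 285 without 8-Br-cAMP 1, 4103 without both number 1 arrays and 4680 with the block and without pair 1. The mean of a gene's probe sets gives no count of probe sets.

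Of the cascade genes 0 changed with no block. The count was 1 with the replicate block and, under that block, with quantile normalization, no filter, the 60th percentile, the floor, the pseudocount, robust variances and mean probe sets, and 1 under the series' selection. It was 0 with the block and a common median or no trend. Leaving out samples gave 0 to 11. The 11 came with the block and without pair 1, where 4680 of all 13329 probe sets passed. Without both number 1 arrays and with no block there were 10, where 4103 of all probe sets passed. With all 6 arrays the replicate block changed the call of MAPK13 and of no other cascade gene, and with both number 1 arrays left out it changed that of MAPK3 (-1.06, adjusted p 0.115 with no block and 0.0219 with it).

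Over 31 named genes and 883 gene-by-setting values, 709 kept their direction and side of the threshold, 115 passed where the value with all arrays and no block did not, and 59 reversed, in 11 genes, with causes not tested. Differences reversed to -0.065 in MAPK6, 0.050 in MAPK12, 0.029 in MAP2K4, 0.12 in MAP3K4 and 0.0067 in MAPKAPK3 under quantile normalization, with or without the block. With a common median MAPK12 gave 0.025, MAP2K2 0.16, MAP2K4 0.12, MAP3K4 0.15 and MAPKAPK3 0.10. With 1 array, or under the block 1 pair, left out the difference ran from -1.30 to 0.019 in MAPK3, -0.25 to 0.35 in MAPK6, -0.17 to 0.27 in MAPK7, -0.61 to 0.10 in MAPK12, -0.22 to 0.58 in MAP2K1, -0.97 to 0.41 in MAP2K2, -0.24 to 0.11 in MAP2K4, -0.37 to 0.13 in MAP3K4, -0.57 to 0.15 in MAPKAPK3, -0.64 to 0.26 in MAPKAPK5 and -0.13 to 0.48 in RPS6KA3. Without both number 1 arrays it reversed to -0.096 in MAPK7 and 0.037 in MAP2K4. Groups of 3 arrays, and low signals in the genes below the filter, limit what these arrays can detect.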
